A study of Homo sapiens with 6 samples.

Results

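The insulin-like growth factor (IGF) binding proteins and receptors were examined in A549, an epithelial cell line from a human lung adenocarcinoma, after knockdown of GSE1, whose product is found with the CoREST repressor complex. The genes were the 7 binding proteins IGFBP1 to IGFBP7 and the receptors IGF1R, IGF2R and INSR, taken by symbol, which made 10 of the 60612 genes in the deposited table. The first group was 3 libraries from A549 cells given small interfering RNA (siRNA) against GSE1 (siGSE1), and the second was 3 libraries from A549 cells given a negative control siRNA, all taken 48 hours after transfection. The stated question was which genes GSE1 influences. All 6 libraries came from a single cell line, their siRNA sequences were not given in the sources used here, and no label says whether replicates 1 to 3 were cultures grown apart, so each p-value reflects the scatter among these libraries alone and that scatter may be technical.

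IGF1 and IGF2 are secreted growth factors that signal through IGF1R, a receptor tyrosine kinase of cell growth and survival, and through its close relative INSR, the insulin receptor. Most IGF in body fluids is held by binding proteins, which keep it from the receptor until a protease releases it. IGF2R has no kinase and carries IGF2 and mannose 6-phosphate tagged enzymes to the lysosome. IGF1R signaling is known as a growth and survival input in lung adenocarcinoma.

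The family was put forward because IGFBP4 was already known to be among the most significant and abundant genes that were higher in siGSE1 cells. Its difference is therefore given as a description without a p-value, and the adjusted p-values of the other 9 members lend it no support.

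The libraries held 17521807 to 19914346 counts in siGSE1 cells and 14475992 to 20755506 in control cells. Of 15937 genes tested with edgeR's quasi-likelihood test, 19.9% passed an adjusted p of 0.05, 10.9% higher and 9.02% lower in siGSE1 cells. With each library scaled to its summed FPKM instead (TPM scaling), the split of genes called went to 2544 higher and 929 lower, where the scaling used here gave 1730 higher and 1437 lower. GSE1 itself had 3.84, 4.06 and 3.73 FPKM (counts per kilobase of exon, scaled to the library total) in siGSE1 replicates 1, 2 and 3, against 7.37, 8.06 and 7.92 in the control replicates, which was 49.0% of control in the fit (log2 fold change -1.03, SE 0.06, adjusted p = 2.14e-08). Control replicate 2 stood apart from its group, with a chi-square per degree of freedom of 10.1 and 8.97 against the other control libraries, where those differed from each other by 4.60. Values without it are given beside many of the results below. Epithelial keratins were abundant, KRT18 averaging 773 and KRT8 640.2 FPKM in siGSE1 cells, against 902 and 754 in control cells, whereas EPCAM stayed between 0.45 and 1.14 FPKM. The summed level of 8 fibroblast markers was 2.09 to 2.30 FPKM in siGSE1 cells and 1.3 to 1.99 in control cells, with 7 of the 8 under 1 FPKM in every library. DCN, FAP, COL1A2 and COL3A1 were each listed at 0 in at least 1 library of both groups. Of 6 leukocyte markers 5, and of 5 endothelial markers all 5, were under 1 FPKM throughout, with CD14 the exception at 3.14 to 5.67 FPKM. The part of other cell types in the results below was not tested.

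All 10 members passed the low-count filter. In siGSE1 cells 3 of them (IGFBP4, IGFBP7 and IGF1R) were called higher, 3 (IGFBP1, IGFBP2 and IGFBP6) were called lower, and 4 (IGFBP3, IGFBP5, IGF2R and INSR) did not pass. Among all genes tested 10.9% were called higher and 9.02% lower, and nothing is read from the members' counts because this contrast put the family forward. The median log2 fold change of the members was 0.23, beside 0.00 over all genes tested. The FPKM of the groups did not overlap for 5 members, IGFBP4, IGFBP6, IGFBP7, IGF1R and IGF2R, and for 36.1% of all genes tested. Without control replicate 2, 4 members were called higher, IGFBP3 being added, and 3 lower. In bulk RNA, more cells expressing a gene and more of its RNA per cell cannot be told apart.

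**Figure D1:**
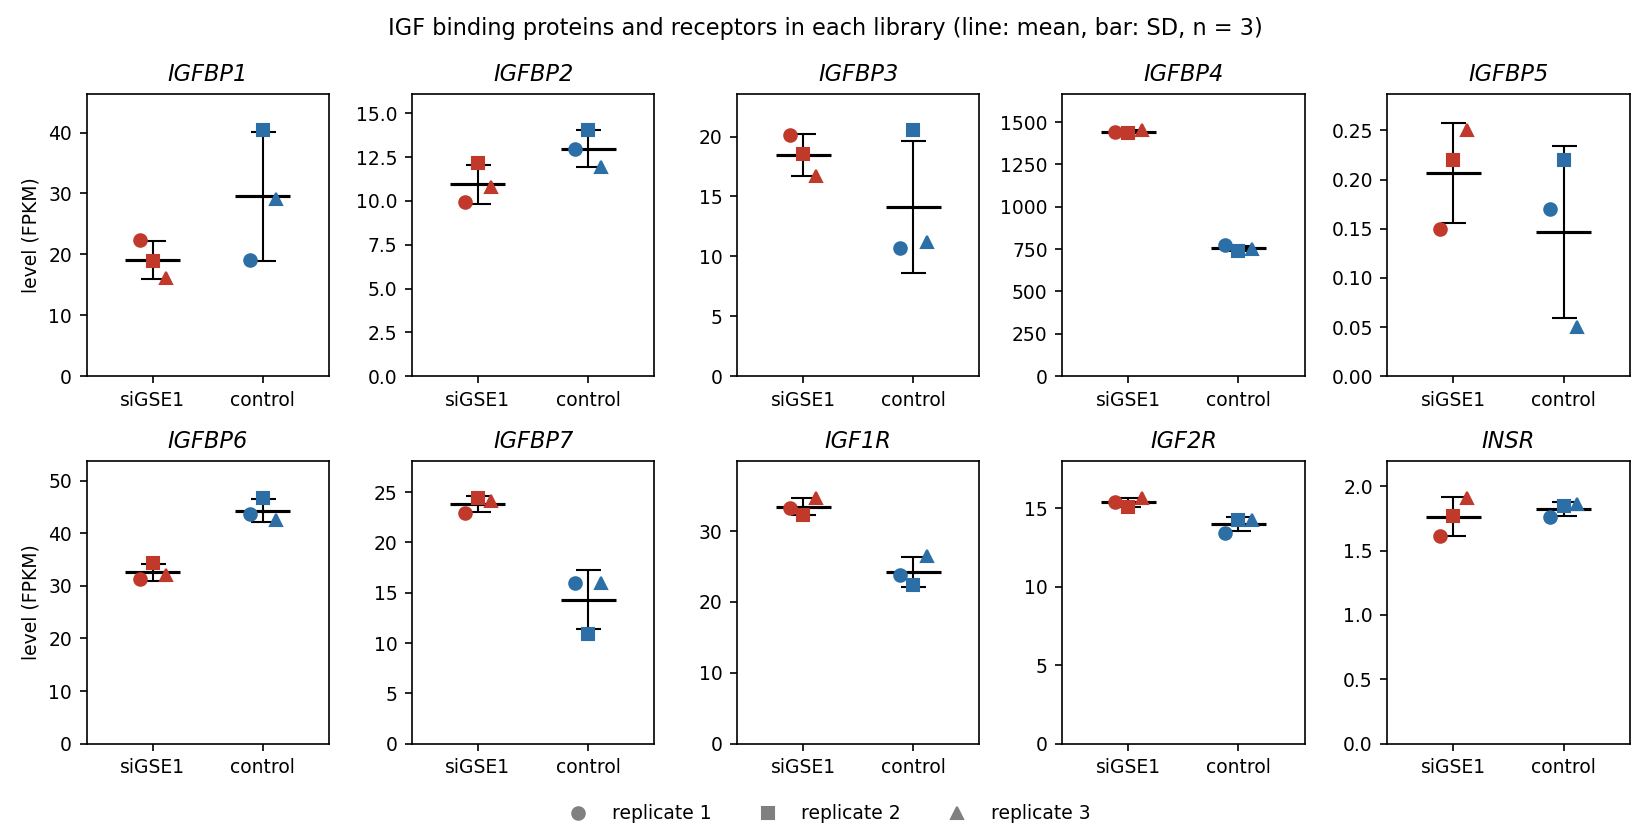
Level of each member in FPKM (vertical axis, own scale from 0 for each gene) in the 3 siGSE1 and 3 control libraries, with marker shape for the replicate, a line for the mean and a bar for the SD. IGFBP4 sits at 1434.2 to 1450.8 FPKM in siGSE1 cells and at 740.8 to 772 in control cells, whereas control replicate 2 lies far from the other control libraries for IGFBP3 and IGFBP7, and the control libraries of IGFBP1 are spread widely.

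IGFBP4, known mainly as an inhibitor of IGF action, was by far the most abundant member. It lies on chromosome 17 (hg38, 40443450 to 40457725, plus strand, ENSG00000141753). IGFBP4 had 1440.3, 1434.2 and 1450.8 FPKM in siGSE1 replicates 1, 2 and 3, against 772, 740.8 and 749.8 FPKM in control replicates 1, 2 and 3. All siGSE1 libraries were close to each other and far above all control libraries. The difference was 1.88-fold, a log2 fold change of 0.91 (SE 0.05), from 55646 to 63708 counts per siGSE1 library and 23932 to 34947 per control library. IGFBP4 took 0.318% ± 0.002 of all counts in siGSE1 cells and 0.166% ± 0.004 in control cells (SD, n = 3 each). By mean FPKM it ranked 26 among the genes tested, an abundance that the choice of the family had used. Leaving out control replicate 2 gave a log2 fold change of 0.90 (SE 0.05).

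Of the 55 tested genes with a mean of at least 500 FPKM, 5 were called higher and 28 lower in siGSE1 cells. The others in that range had log2 fold changes between -0.60 for GPX2, a glutathione peroxidase, and 0.36 for ACTB, the beta-actin of the cytoskeleton, both named after their values were seen. IGFBP4 was chosen for being abundant and higher, so its place beside these genes is a description of that choice.

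**Figure D2:**
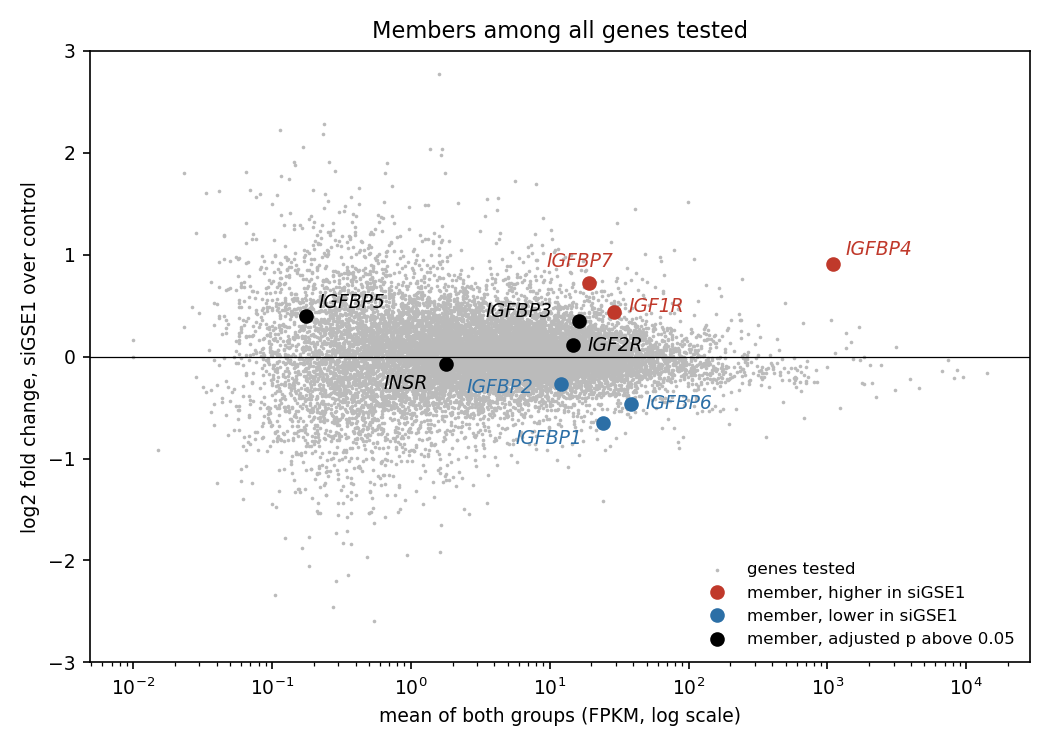
Log2 fold change of siGSE1 over control (vertical axis) against the mean FPKM of both groups (horizontal axis, log scale) for the 15937 genes tested in grey, with members in red where called higher, in blue where called lower and in black where the adjusted p was above 0.05. IGFBP4, chosen for being abundant and higher, is the red point at a log2 fold change of 0.91, and the other members lie within the cloud.

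The nearest tested neighbours of IGFBP4 on the chromosome, named by position alone, were TOP2A, the topoisomerase of dividing cells, 25553 bases to its left, and AC018629.1, 15828 bases to its right. TOP2A had 81.3 ± 1.499 FPKM in siGSE1 cells and 65.9 ± 3.96 in control cells (n = 3 each, SD), a log2 fold change of 0.28 (edgeR, SE 0.05, adjusted p = 0.00184). AC018629.1 had 6.51 ± 0.53 FPKM in siGSE1 cells and 6.05 ± 0.78 in control cells (n = 3 each, SD), a log2 fold change of 0.07 (edgeR, SE 0.13, adjusted p = 0.761). Both fold changes were smaller than that of IGFBP4. Since IGFBP4 was chosen for its rise, nothing is read from that.

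The promoter windows of IGFBP4, IGFBP6 and IGF1R are shown. These members had groups that did not overlap and kept their direction and call under every alternative run. For IGFBP4, chosen for its rise in this contrast, that is a description. IGFBP7 met the same rule, but no window was matched for it. Each window runs from 250 bases before to 50 bases after the RefSeq start (build GRCh38.p14), 5′ to 3′ on the gene's own plus strand. Capitals mark the TATA motif TATAAA, the GC box GGGCGG, a motif of the Sp and KLF zinc finger factors, and the forkhead motif GTAAACA, each searched on both strands, so that CCGCCC in capitals is a GC box on the other strand. The motifs do not overlap each other in these windows. The IGFBP4 window is chr17:40443200-40443499, that of IGFBP6 chr12:53097417-53097716 and that of IGF1R chr15:98648289-98648588.
IGFBP4: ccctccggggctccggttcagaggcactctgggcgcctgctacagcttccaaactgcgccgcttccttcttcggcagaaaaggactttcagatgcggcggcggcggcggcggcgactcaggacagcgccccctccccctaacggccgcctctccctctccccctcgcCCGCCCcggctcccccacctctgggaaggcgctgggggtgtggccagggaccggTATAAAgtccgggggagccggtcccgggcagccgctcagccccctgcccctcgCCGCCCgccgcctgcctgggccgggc
IGFBP6: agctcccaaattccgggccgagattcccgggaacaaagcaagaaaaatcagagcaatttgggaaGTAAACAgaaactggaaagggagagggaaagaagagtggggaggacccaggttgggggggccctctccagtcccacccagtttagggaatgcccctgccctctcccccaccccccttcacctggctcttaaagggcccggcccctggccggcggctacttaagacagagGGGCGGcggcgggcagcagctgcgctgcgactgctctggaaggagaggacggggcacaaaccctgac
IGF1R: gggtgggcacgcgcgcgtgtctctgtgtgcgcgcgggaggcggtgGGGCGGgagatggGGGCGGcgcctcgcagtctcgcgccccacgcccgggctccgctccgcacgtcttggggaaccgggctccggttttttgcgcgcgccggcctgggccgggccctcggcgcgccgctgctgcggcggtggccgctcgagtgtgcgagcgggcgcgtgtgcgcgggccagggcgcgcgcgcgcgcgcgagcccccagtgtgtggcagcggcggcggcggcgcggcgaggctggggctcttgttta

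The IGFBP4 window held TATAAA, beginning 29 bases before the start, and 2 GC boxes. That of IGFBP6 held 1 GC box and the forkhead motif GTAAACA, and that of IGF1R held 2 GC boxes. The RefSeq start used for IGFBP6 lies downstream of the gene start in the deposited table, 53097436. By that gene start, the forkhead motif at position 65 of the window lies inside the gene. Their GC content was 74.0% for IGFBP4, 61.7% for IGFBP6 and 79.7% for IGF1R, beside a median of 58.7% over all windows. Of 35116 windows in the table, 11.5% held TATAAA, 45.0% held GGGCGG and 3.42% held GTAAACA. RefSeq windows were matched for 8 of the 10 members, and TATAAA occurred in that of IGFBP4 alone and GTAAACA in that of IGFBP6 alone. GC boxes occurred in members called higher, called lower and not called, with 6 in the window of IGF2R, 4 in that of INSR, 2 in that of IGFBP3 and 0 in that of IGFBP5. IGFBP2 had several windows, which held 1, 1 and 0. A match is a run of letters and not a measured binding site.

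IGFBP7, a low-affinity relative of the other binding proteins that is secreted by vessel walls and many epithelia, was higher in siGSE1 cells. It lies on chromosome 4 (hg38, 57030773 to 57110385, minus strand, ENSG00000163453). IGFBP7 had 22.95, 24.4 and 24.1 FPKM in siGSE1 replicates 1, 2 and 3, against 16.0, 10.9 and 16.0 FPKM in control replicates 1, 2 and 3. Every siGSE1 library lay above every control library, and control replicate 2 was the lowest. The log2 fold change was 0.72 (edgeR, SE 0.11, adjusted p = 0.000276), a 1.65-fold difference. Without control replicate 2 it was 0.55 (edgeR, SE 0.08, adjusted p = 8.35e-07). The end of IGFBP7 overlaps that of POLR2B, an RNA polymerase II subunit gene on the opposite strand, by 386 bases. POLR2B had 1714 to 2708 counts per library and a log2 fold change of -0.10 (edgeR, SE 0.06, adjusted p = 0.245). Use of strand in counting was not given in the sources used here, so reads in that stretch are uncertain for both genes.

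IGFBP6, which prefers IGF2 over IGF1, was by FPKM the most abundant binding protein message after IGFBP4 and was lower in siGSE1 cells. It lies on chromosome 12 (hg38, 53097436 to 53102345, plus strand, ENSG00000167779). IGFBP6 had 31.3, 34.4 and 32.0 FPKM in siGSE1 replicates 1, 2 and 3, against 43.6, 46.7 and 42.4 FPKM in control replicates 1, 2 and 3. All siGSE1 libraries were below all control libraries. The message fell to 72.3% of control, a log2 fold change of -0.47 (edgeR, SE 0.07, adjusted p = 0.000129), and without control replicate 2 the log2 fold change was -0.43.

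IGFBP1, whose gene is known to be repressed by insulin, was called lower in siGSE1 cells but varied widely between control libraries. It lies on chromosome 7 (hg38, 45888360 to 45893660, plus strand, ENSG00000146678). IGFBP1 had 22.4, 18.9 and 16.1 FPKM in siGSE1 replicates 1, 2 and 3, against 19.1, 40.4 and 29.0 FPKM in control replicates 1, 2 and 3. The groups overlapped, since control replicate 1 was below siGSE1 replicate 1, and control replicate 2 was the highest of all. The log2 fold change was -0.65 (edgeR, SE 0.18, adjusted p = 0.0188). It was -0.34 (edgeR, SE 0.11, adjusted p = 0.0199) without control replicate 2 and -0.89 without control replicate 1. The call was lost with edgeR's robust prior (adjusted p = 0.273) and with DESeq2 (adjusted p = 0.151).

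IGFBP3, the main carrier of IGF in serum, lies 18584 bases from IGFBP1 in tail-to-tail orientation (hg38, chromosome 7, 45912245 to 45921874, minus strand, ENSG00000146674). IGFBP3 had 20.2, 18.6 and 16.7 FPKM in siGSE1 replicates 1, 2 and 3, against 10.7, 20.5 and 11.2 FPKM in control replicates 1, 2 and 3. Control replicates 1 and 3 lay below all siGSE1 libraries, and control replicate 2 lay above them all. IGFBP3 had a log2 fold change of 0.35 (edgeR, SE 0.17, adjusted p = 0.161) and did not pass. Without control replicate 2 the log2 fold change was 0.73 (edgeR, SE 0.07, adjusted p = 1.43e-10). With all libraries kept, IGFBP3 was also called under the replicate block (adjusted p = 0.0395) and with no low-count filter (adjusted p = 4.23e-06), so its call depends on that library and on the form of the fit.

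Control replicate 2 was the highest control library for both of these neighbours, and the ratio of their levels was closer between control libraries than either level. The FPKM of IGFBP3 divided by that of IGFBP1 was 0.90, 0.98 and 1.04 in siGSE1 replicates 1, 2 and 3, against 0.56, 0.51 and 0.39 in control replicates 1, 2 and 3. The ratio was thus higher in every siGSE1 library than in any control library, control replicate 2 included. It sets a gene with a positive fold change over one with a negative fold change, and the levels of each overlapped between the groups. Such ratios have no background over all genes, so nothing is read from the separation.

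IGFBP2, which can also bind integrins, was slightly lower in siGSE1 cells. It lies on chromosome 2 (hg38, 216632828 to 216664436, plus strand, ENSG00000115457). IGFBP2 had 9.94, 12.1 and 10.8 FPKM in siGSE1 replicates 1, 2 and 3, against 13.0, 14.03 and 11.95 FPKM in control replicates 1, 2 and 3. The highest siGSE1 library and the lowest control library overlapped. The log2 fold change was -0.27 (edgeR, SE 0.08, adjusted p = 0.0228), and it was -0.21 without control replicate 2. The call was lost with TPM scaling (adjusted p = 0.0716) and, among other settings, without control replicate 1 (adjusted p = 0.0590).

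IGFBP5, a binding protein of bone and matrix, lies 7668 bases from IGFBP2, again tail to tail (hg38, chromosome 2, 216672105 to 216695549, minus strand, ENSG00000115461). It was near the floor of detection, with 17, 27 and 32 counts in siGSE1 replicates 1, 2 and 3, against 22, 30 and 5 counts in control replicates 1, 2 and 3. IGFBP5 had 0.15 to 0.25 FPKM in siGSE1 cells and 0.05 to 0.22 in control cells, which overlapped, and a log2 fold change of 0.39 (edgeR, SE 0.42, adjusted p = 0.566). The 95% interval from the SE reaches from -0.43 to 1.22, and without control replicate 2 the log2 fold change was 0.80 (edgeR adjusted p = 0.241).

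**Figure D3:**
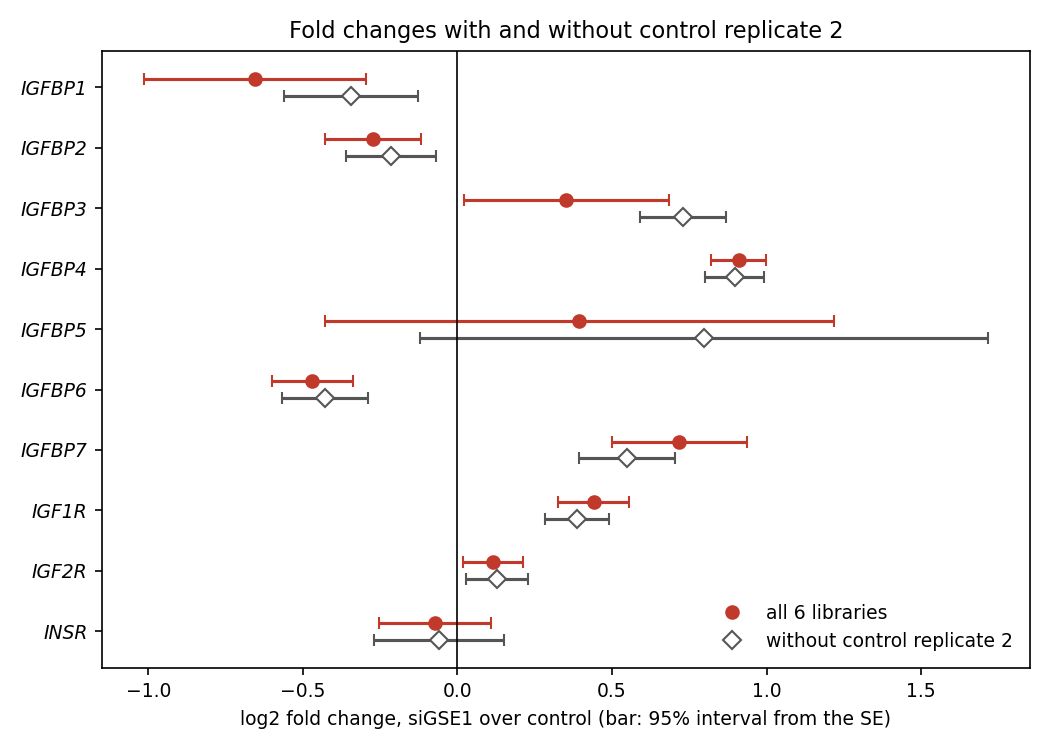
Log2 fold change of siGSE1 over control (horizontal axis) for each member with all 6 libraries (filled circles) and without control replicate 2 (open diamonds), with bars for the 95% interval from the SE. IGFBP3 moves from 0.35 to 0.73 and IGFBP1 from -0.65 to -0.34 when that library is left out, whereas IGFBP4 stays at 0.91 and 0.90.

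FPKM divide by each gene's exonic length, so an order or share between genes depends on the length used. That length was 4742 bases for IGFBP2 and 1346 for IGFBP6. Their counts were alike, at 826 to 1113 and 739 to 894 per siGSE1 library. On the FPKM scale, the order of levels among the binding proteins in siGSE1 cells was IGFBP4, IGFBP6, IGFBP7, IGFBP1, IGFBP3, IGFBP2 and IGFBP5. In control cells it was IGFBP4, IGFBP6, IGFBP1, IGFBP7, IGFBP3, IGFBP2 and IGFBP5. IGFBP1 and IGFBP3 overlapped in level in siGSE1 cells, IGFBP7, IGFBP3 and IGFBP2 overlapped in control cells, and so did IGFBP1 and IGFBP3. IGFBP4 made up 93.2% ± 0.32 of the summed FPKM of the 7 binding proteins in siGSE1 cells and 86.7% ± 1.76 in control cells (SD, n = 3 each). That share holds the rise for which IGFBP4 was chosen, so its difference between the groups is a description of that choice. The sum without IGFBP4 was 107, 109 and 99.9 FPKM in siGSE1 replicates 1, 2 and 3, against 103, 133 and 111 FPKM in control replicates 1, 2 and 3, which overlapped. IGFBP7 held 21.5% to 24.1% of it in siGSE1 cells and 8.22% to 15.6% in control cells. IGFBP6 held 29.3% to 32.0% in siGSE1 cells and 35.2% to 42.5% in control cells, and IGFBP3 held 16.7% to 18.9% in siGSE1 cells and 10.1% to 15.5% in control cells. For these 3 genes the shares did not overlap between groups, whereas those of IGFBP1, IGFBP2 and IGFBP5 did. Nothing is read from that, since shares of the same sum move together and have no background over all genes. On plain FPKM, 36.1% of all genes tested did not overlap, and the levels of IGFBP3 did overlap. IGFBP1 held 16.1% to 20.9% in siGSE1 cells and 18.7% to 30.4% in control cells.

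**Figure D4:**
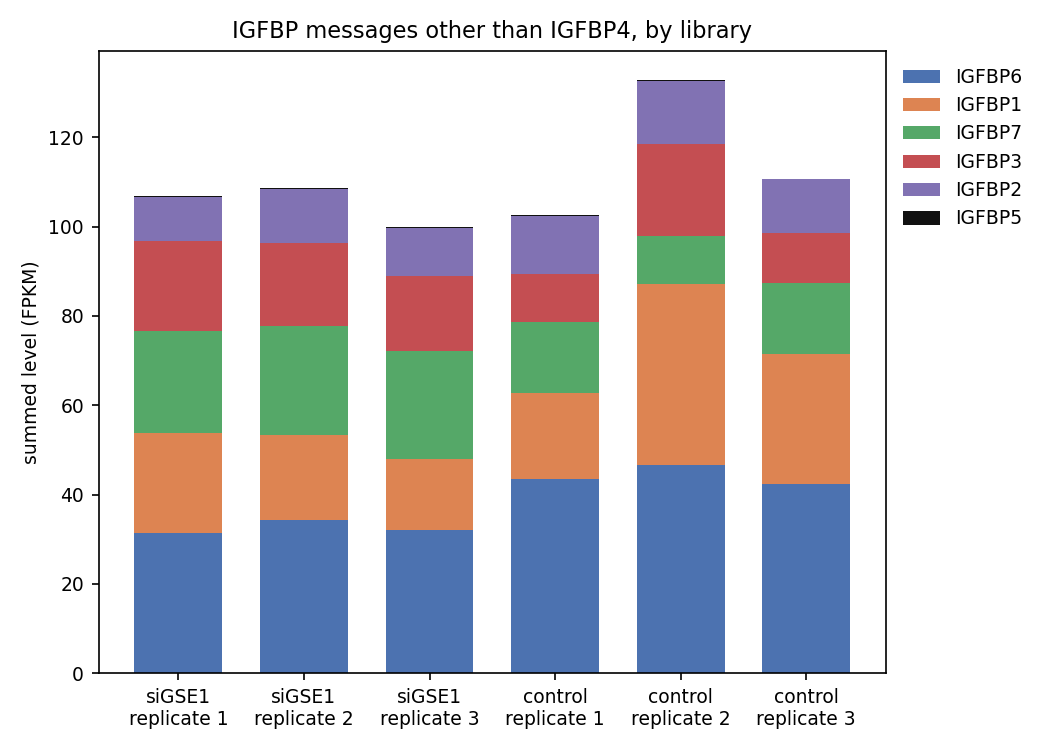
Summed level in FPKM (vertical axis) of the binding protein messages other than IGFBP4 in each library (horizontal axis), split by gene in color. The siGSE1 bars reach 99.9 to 109 FPKM and the control bars 103 to 133, with control replicate 2 the tallest, and the IGFBP7 segment takes a larger share of each siGSE1 bar.

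IGF1R, the kinase receptor for IGF1 and IGF2, was the most abundant of the receptors and was higher in siGSE1 cells. It lies on chromosome 15 (hg38, 98648539 to 98964530, plus strand, ENSG00000140443). IGF1R had 33.2, 32.4 and 34.7 FPKM in siGSE1 replicates 1, 2 and 3, against 23.9, 22.4 and 26.5 FPKM in control replicates 1, 2 and 3. The lowest siGSE1 library was above the highest control library. The difference was 1.36-fold, a log2 fold change of 0.44 (edgeR, SE 0.06, adjusted p = 8.17e-05), and it was 0.39 without control replicate 2. The 5 genes that overlap IGF1R in the table had at most 17 counts in a library, where IGF1R had at least 5343.

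IGF2R, the clearance and lysosomal sorting receptor (hg38, chromosome 6, 159969082 to 160113507, plus strand, ENSG00000197081), had 15.4, 15.1 and 15.7 FPKM in siGSE1 replicates 1, 2 and 3, against 13.45, 14.2 and 14.3 FPKM in control replicates 1, 2 and 3. These groups did not overlap, yet the difference was small, with a log2 fold change of 0.11 (edgeR, SE 0.05, adjusted p = 0.116). It passed only under TPM scaling among the alternatives run, with a log2 fold change of 0.18 (adjusted p = 0.0164). INSR (hg38, chromosome 19, 7112255 to 7294414, minus strand, ENSG00000171105) had 1.61, 1.77 and 1.91 FPKM in siGSE1 replicates 1, 2 and 3, against 1.76, 1.85 and 1.86 FPKM in control replicates 1, 2 and 3. The groups overlapped and the log2 fold change of INSR was -0.07 (edgeR, SE 0.09, adjusted p = 0.643), with a 95% interval from the SE reaching from -0.25 to 0.11.

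IGF1R and INSR form hybrid receptors as well as pairs of their own kind, so the ratio of their messages was taken. The FPKM of IGF1R divided by that of INSR was 20.6, 18.3 and 18.2 in siGSE1 replicates 1, 2 and 3, against 13.6, 12.1 and 14.2 in control replicates 1, 2 and 3. The ratio of IGF2R to IGF1R was 0.45 to 0.47 in siGSE1 cells and 0.54 to 0.64 in control cells. Neither ratio overlapped between the groups. Both ratios contain IGF1R, itself called higher, and ratios have no background over all genes, so nothing is read from that. On the FPKM of single genes, 36.1% of all genes tested did not overlap.

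The ligands that these proteins bind were scarcely detected in either group. IGF1 and INS had 0 counts in every library, and IGF2 had at most 7 counts in a siGSE1 library and 8 in a control library. Of the 6 genes listed as ligands and binding partners, 5 were below the count filter, among them IGFALS, the acid-labile subunit that holds IGF in serum, at 0.05 to 0.13 FPKM in siGSE1 cells and 0.06 to 0.15 in control cells. IGFBPL1, a secreted protein related to the IGFBPs, had 1.81 to 1.90 FPKM in siGSE1 cells and 0.81 to 1.61 in control cells. Its log2 fold change was 0.52 (edgeR, SE 0.20, adjusted p = 0.0867), and without control replicate 2 it was 0.72 (edgeR adjusted p = 0.00865).

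Among 6 tested genes for proteases that cut IGFBPs and for their inhibitors, 2 rose, 0 fell and 4 did not pass, which is 33.3% called beside 19.9% of all genes. Their median log2 fold change was 0.19, beside 0.00 over all genes. PAPPA, the metalloprotease that cuts IGFBP4 and was not chosen by the naming rule, had 34.5, 31.5 and 32.6 FPKM in siGSE1 replicates 1, 2 and 3, against 33.3, 33.0 and 37.9 FPKM in control replicates 1, 2 and 3. The groups overlapped, and the log2 fold change was -0.10 (edgeR, SE 0.06, adjusted p = 0.239). STC1, a secreted inhibitor of PAPPA, had 11.4, 10.6 and 11.1 FPKM in siGSE1 replicates 1, 2 and 3, against 5.21, 4.39 and 4.51 FPKM in control replicates 1, 2 and 3. STC1 was higher in every siGSE1 library than in any control library, with a log2 fold change of 1.20 (edgeR, SE 0.08, adjusted p = 1.73e-07). HTRA1, a serine protease with an IGFBP domain of its own, rose by 0.21 on the log2 scale (edgeR, SE 0.07, adjusted p = 0.0373), a call lost under 6 alternatives, among them DESeq2 (adjusted p = 0.0735) and leaving out any siGSE1 library. STC2, the paralog of STC1, had 5.88 to 6.28 FPKM in siGSE1 cells. In control replicates 1, 2 and 3 it had 5.68, 4.53 and 10.1 FPKM, and it did not pass (edgeR, adjusted p = 0.608). Without control replicate 2, its lowest library, STC2 had a log2 fold change of -0.37 (edgeR adjusted p = 0.0113). Control replicate 1 still lay below every siGSE1 library, so that lower value rests on control replicate 3 alone.

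The other proteins with an IGFBP domain include the CCN family of matrix signals. Of 6 tested, 1 rose, 1 fell and 4 did not pass, which is 33.3% called beside 19.9% of all genes. Their median log2 fold change was -0.30, and it was -0.05 without control replicate 2. CCN1, an adhesion protein induced by serum, had 16.2, 15.3 and 18.9 FPKM in siGSE1 replicates 1, 2 and 3, against 12.4, 8.95 and 11.8 FPKM in control replicates 1, 2 and 3, a log2 fold change of 0.58 (edgeR, SE 0.11, adjusted p = 0.00108). CCN5, a member that lacks the C-terminal domain of the family, had 1.23, 1.48 and 1.53 FPKM in siGSE1 replicates 1, 2 and 3, against 2.92, 2.82 and 3.44 FPKM in control replicates 1, 2 and 3, a log2 fold change of -1.13 (edgeR, SE 0.13, adjusted p = 1.61e-05). For both genes the groups did not overlap, and without control replicate 2 the log2 fold changes were 0.45 for CCN1 and -1.19 for CCN5.

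Downstream of the receptors, 31 of 32 genes for adaptors and the PI3K arm were tested, of which 4 rose, 4 fell and 23 did not pass. Their median log2 fold change was 0.07, and 25.8% were called, beside 19.9% of all genes. With TPM scaling 7 were called higher and 1 lower. GRB10, an adaptor that dampens signaling from both kinase receptors, had 14.6 ± 0.38 FPKM in siGSE1 cells and 10.7 ± 0.84 in control cells (n = 3 each, SD), a log2 fold change of 0.42 (edgeR, SE 0.06, adjusted p = 0.000113). AKT1, the kinase at the center of the arm, had 16.1 ± 0.61 FPKM in siGSE1 cells and 12.1 ± 0.92 in control cells (n = 3 each, SD), a log2 fold change of 0.39 (edgeR, SE 0.06, adjusted p = 0.000383). GSK3B, a kinase that AKT inhibits, rose by 0.24 on the log2 scale (edgeR, SE 0.05, adjusted p = 0.00461). NEDD4, a ubiquitin ligase, had 18.8 ± 1.37 FPKM in siGSE1 cells and 24.2 ± 2.39 in control cells (n = 3 each, SD), a log2 fold change of -0.39 (edgeR, SE 0.07, adjusted p = 0.000887).

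FOXO factors are kept out of the nucleus by AKT, and genes they activate include IGFBP1 and INSR themselves. Of 17 tested FOXO targets, those members included, 1 rose, 6 fell and 10 did not pass, which is 41.2% called beside 19.9% of all genes. The median log2 fold change was -0.25, and it was -0.06 without control replicate 2, when 2 were called higher and 6 lower. BCL6, a transcriptional repressor, had 4.50, 4.38 and 4.16 FPKM in siGSE1 replicates 1, 2 and 3, against 5.06, 7.78 and 6.26 FPKM in control replicates 1, 2 and 3, a log2 fold change of -0.58 (edgeR, SE 0.12, adjusted p = 0.00238) and of -0.40 without control replicate 2. Control replicate 2 had the highest value for BCL6, for IGFBP1 and also for PDK4, a kinase that turns off pyruvate oxidation and was named after its values were seen, which had 34.9 FPKM there and 19.9 to 22.9 in the other control libraries. CAT, catalase, fell by 0.32 on the log2 scale (edgeR, SE 0.08, adjusted p = 0.0108), and TXNIP, an inhibitor of thioredoxin and glucose uptake, fell by 0.66 (edgeR, SE 0.18, adjusted p = 0.0156), although control replicate 1 lay within the siGSE1 range. SOD2, the mitochondrial superoxide dismutase, rose by 0.32 (edgeR, SE 0.08, adjusted p = 0.0101). BCL6, CAT, TXNIP and SOD2 all lost their calls with limma on log2(FPKM + 1), at adjusted p = 0.0516, 0.0737, 0.110 and 0.0577. Without control replicate 2 the log2 fold changes were -0.21 for CAT, -0.48 for TXNIP and 0.43 for SOD2.

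Of 8 genes listed for mannose 6-phosphate tagging and sorting, the route on which IGF2R carries enzymes, 1 rose, 0 fell and 7 did not pass, which is 12.5% called beside 19.9% of all genes. The one that rose was FURIN, the protease that cuts the IGF1R and INSR precursors into their subunits. FURIN had 58.0, 60.6 and 66.4 FPKM in siGSE1 replicates 1, 2 and 3, against 42.4, 41.3 and 44.7 FPKM in control replicates 1, 2 and 3. Its groups did not overlap and its log2 fold change was 0.50 (edgeR, SE 0.06, adjusted p = 1.80e-05). Of the 3 IGF2 mRNA-binding proteins, which hold IGF2 and other messages in the cytoplasm, none passed with edgeR. IGF2BP1 had 17.2 ± 0.25 FPKM in siGSE1 cells and 17.0 ± 1.297 in control cells, and IGF2BP3 had 4.51 ± 0.37 FPKM in siGSE1 cells and 4.30 ± 0.35 in control cells (SD, n = 3 each).

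**Figure D5:**
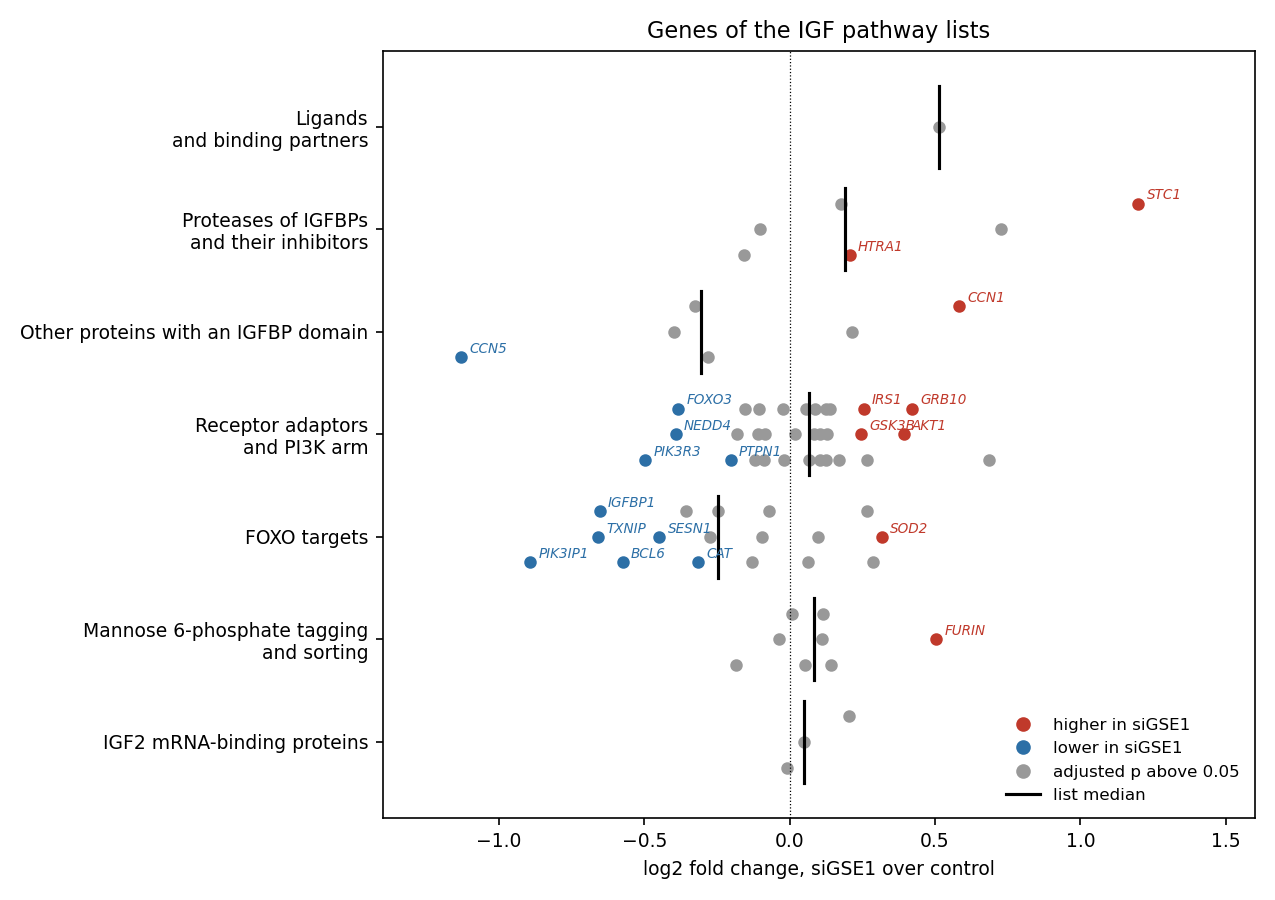
Log2 fold change of siGSE1 over control (horizontal axis) for the tested genes of each IGF pathway list (vertical axis), red where called higher, blue where called lower and grey where the adjusted p was above 0.05, with a black bar at the list median. STC1 at 1.20 is the gene farthest to the right and CCN5 at -1.13 the farthest to the left.

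The genes most like IGFBP4 and IGF1R across the 6 libraries were sought among 6809 tested genes with a mean of at least 5 FPKM. Likeness was the root mean square difference between log2 CPM values (counts scaled to the library total), each gene being centered on its own mean. The 5 nearest to IGFBP4 were PPP1R14B, RND1, TRAF3, PCNX3 and KLF6, at 0.062, 0.062, 0.067, 0.068 and 0.073, where the median gene was at 0.47. KLF6, the transcription factor named in the series title, had 15.3, 15.6 and 15.6 FPKM in siGSE1 replicates 1, 2 and 3, against 7.44, 7.25 and 7.28 FPKM in control replicates 1, 2 and 3. The 5 nearest to IGF1R were SIK1B, INAVA, SERPINE2, HDAC7 and PPP6R2, at 0.031 to 0.040, where the median gene was at 0.25. SIK1B has a near-identical copy, SIK1, so its counts are uncertain. The measure follows mostly the difference between the groups, so genes near a member had to differ in the same direction, and their fold changes carry no test.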

How the data were processed

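RNA from 6 libraries of A549 cells, 3 per group, was analysed from 1 table of 60612 genes. The aligner named per the submitters' processing notes is HISAT2, with HTSeq, StringTie 1.3.3b and edgeR listed beside it and hg38 as the build, whereas the series text names STAR and DESeq2. The annotation release was not given in the sources used here. All counts are raw whole numbers as deposited by the authors. The deposited FPKM equal count over exonic length and library total within 0.0051 in 100% of values, per the file headers and the values. Per the labels, 500 ng of RNA entered each library.

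Genes were filtered with filterByExpr (minimum count 10, minimum total 15), scaled by TMM and tested with edgeR 4.0.16 (quasi-likelihood F test on group alone, R 4.3.3). Benjamini-Hochberg adjustment ran over 15937 genes, with a threshold of 0.05. SEs are the absolute log2 fold change over the square root of F. The test was checked on simulated counts. Its first pass criterion, on the share of all 2-fold changes recovered, was missed; after that run it was replaced by one on genes above a minimum CPM, which was met. Simulated 2-fold changes of genes below that level were mostly not recovered, so a low-count gene that did not pass may still differ. FPKM are printed as deposited, with SDs over 3 libraries. Alternatives were DESeq2 1.42.0, limma 3.58.1 on log2(FPKM + 1) and log2(FPKM + 0.1), other scalings, filters and priors, a replicate block and each library left out.

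Members and pathway lists were chosen with earlier results of these data known. The text names all members, and from each list up to 4 passing genes with the smallest adjusted p, or the 2 most abundant where none passed. It also names the 5 genes most like IGFBP4 and IGF1R and GSE1. Genes outside that rule are marked or stand beside a member by position or role. Coordinates are those of the table in hg38, and promoter windows are RefSeq's.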

Additional observations from a re-analysis of the deposited data

How the results depend on the processing

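IGFBP4, IGFBP6, IGFBP7 and IGF1R kept their direction and side of the threshold under all 16 alternatives, with log2 fold changes of 0.89 to 0.97, -0.51 to -0.41, 0.55 to 0.83 and 0.39 to 0.50. For IGFBP4, chosen for being significant and higher in this contrast, staying past the threshold is a description and lends it no support. No member changed sign. IGFBP1 and IGFBP2 each lost their call under 6 of 16, at -0.89 to -0.34 and -0.35 to -0.21, and IGFBP3 gained one under 3 of 16, at 0.18 to 0.73. With 1 library left out, 3 to 4 members were higher and 1 to 3 lower, 8 to 12 pathway genes were higher and 4 to 12 lower, and 1876 to 3582 genes were called, 1051 to 1929 higher and 825 to 1653 lower. IGFBP4's share of the binding proteins, likewise a description, was then 93.0% to 93.3% in siGSE1 and 85.97% to 87.7% in control cells. The genes called lower numbered 929 with TPM scaling, 887 with limma on log2(FPKM + 1) and 909 on log2(FPKM + 0.1); with either limma fit 1 member and 4 pathway genes were lower. IGF2BP1, uncalled throughout, changed sign from -0.01 to 0.016 without TMM, 0.053 with TPM scaling, 0.015 and 0.016 with limma, and -0.046 to 0.037 with 1 library left out. IGF2BP3 had -0.004 to 0.11 with 1 library left out. The causes were not tested. Same-numbered libraries did not deviate together (r of 0.020, -0.019 and 0.002). That cannot show whether they were prepared as pairs, since a pairing may leave little trace across all genes. With the replicate block 3097 genes were called, 1715 higher and 1382 lower, 4 members were higher and 3 lower, and IGFBP3 had an adjusted p of 0.0395. The result for IGFBP5, at 5 to 32 counts per library, is limited by those low counts.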
